A study of Mus musculus with 5 samples.

Results

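The 9 genes described here govern where invariant natural killer T (iNKT) cells go and whether they stay in the liver. They are the chemokine receptors Cxcr6, Cxcr3, Ccr2 and Cxcr4, the sphingosine 1-phosphate (S1P) receptors S1pr1 and S1pr4, and Cd69, Rgs1 and Zfp683, which are linked to retention in tissue. They were chosen by name and found by Ensembl gene ID, and they are 9 of the 55364 genes in each count table. The libraries were 3' mRNA sequencing of iNKT cells sorted from mouse liver with a CD1d tetramer carrying the lipid PBS57 together with an antibody to T cell receptor beta. The 3 HCC libraries came from wild-type male C57BL/6 mice that received 1 injection of 25 mg/kg diethylnitrosamine (DEN), a liver carcinogen, at 15 days of age and bore hepatocellular carcinoma (HCC). The 2 Healthy libraries came from wild-type mice that received PBS. Mice were killed at 38 to 42 weeks of age. The sources used here do not say whether tumour nodules were separated from the liver around them. The design text counts 5 mice, but the table names of HCC 2 and HCC 3 share a number, so these libraries may not be from separate mice.

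iNKT cells recognise lipids on CD1d and, in the mouse, patrol the liver sinusoids. CXCR6 on these cells meets its ligand CXCL16 on the sinusoidal endothelium, and mice without Cxcr6 have fewer hepatic iNKT cells. A lymphocyte leaves tissue by following S1P through S1PR1, and CD69 binds S1PR1 and takes it off the surface, so that CD69 and S1PR1 act against each other. The transcription factor Hobit, encoded by Zfp683, represses exit genes in resident lymphocytes of mouse liver.

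Total counts were 1718452 to 1883979 in HCC libraries and 2224356 and 1821863 in Healthy 1 and 2. Levels are given as CPM, counts scaled to a common library total. A level of 3 counts, taken here as about what a count of 0 allows, corresponds to 1.35 to 1.75 CPM. Intervals on a library's level are exact 95% binomial intervals, which cover counting error only. Healthy 1 stood apart, with a Pearson r across genes of 0.766 to 0.818 with the others, whereas the other pairs had r of 0.853 to 0.905 (genes are not independent replicates). It was at or under the level of each other library in 43.1% of the 8468 genes tested. T cell markers were present throughout, with 6 receptor and CD3 genes summing to 3994, 3476 and 4386 CPM in HCC 1, 2 and 3 and to 3128 and 4223 CPM in Healthy 1 and 2. The 6 iNKT markers summed to 1883, 1674 and 1587 CPM in HCC 1, 2 and 3 and to 1544 and 1442 CPM in Healthy 1 and 2. Of these, Zbtb16, the defining iNKT factor, was at 0 to 1.16 CPM in HCC libraries and at 1.35 and 1.65 CPM in Healthy libraries, within what 3 counts allow. Over all libraries Il2rb was at 649 to 1238 CPM, Tbx21 at 249.5 to 391 CPM, Cd160 at 59.9 to 116 CPM and Slamf6 at 13.8 to 25.2 CPM. Klrb1c was uneven, at 465, 20.95 and 333 CPM in HCC 1, 2 and 3 and 382 and 5.49 CPM in Healthy 1 and 2. Markers of NK cells other than Klrc2 were at 7.07 CPM or less, with Ncr1 and Klra4 at 0 in all libraries.

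No member differed between HCC and Healthy libraries beyond the spread between libraries. Of the 9 genes, 8 passed the filter on low counts, and 0 of these 8 were called higher or lower by edgeR's quasi-likelihood test at an adjusted p under 0.05 (adjusted p = 0.9999 for each), where the share called among all genes tested was 0% in each direction. At an unadjusted p under 0.05 the test gave 0 members and 3.63% of all genes. DESeq2 and limma-voom called 0 members at an adjusted p under 0.05. Among the members and with all 5 libraries, Cd69 alone was at an unadjusted p under 0.05 in other fits, namely limma-voom (adjusted p = 0.934), edgeR without the low-count filter (adjusted p = 0.911) and edgeR with a replicate block (adjusted p = 0.9999). Among the 8 tested, 5 had a higher and 3 a lower fitted level in HCC, where 50.3% of all genes tested were fitted higher. Their median log2 fold change was 0.14, against 0.005 over all genes tested. The HCC and Healthy ranges overlapped in all 9 genes, whereas 18.3% of all genes tested did not overlap. The design allowed only large changes to be seen, as the intervals of the fold changes given below show.

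**Figure D1:**
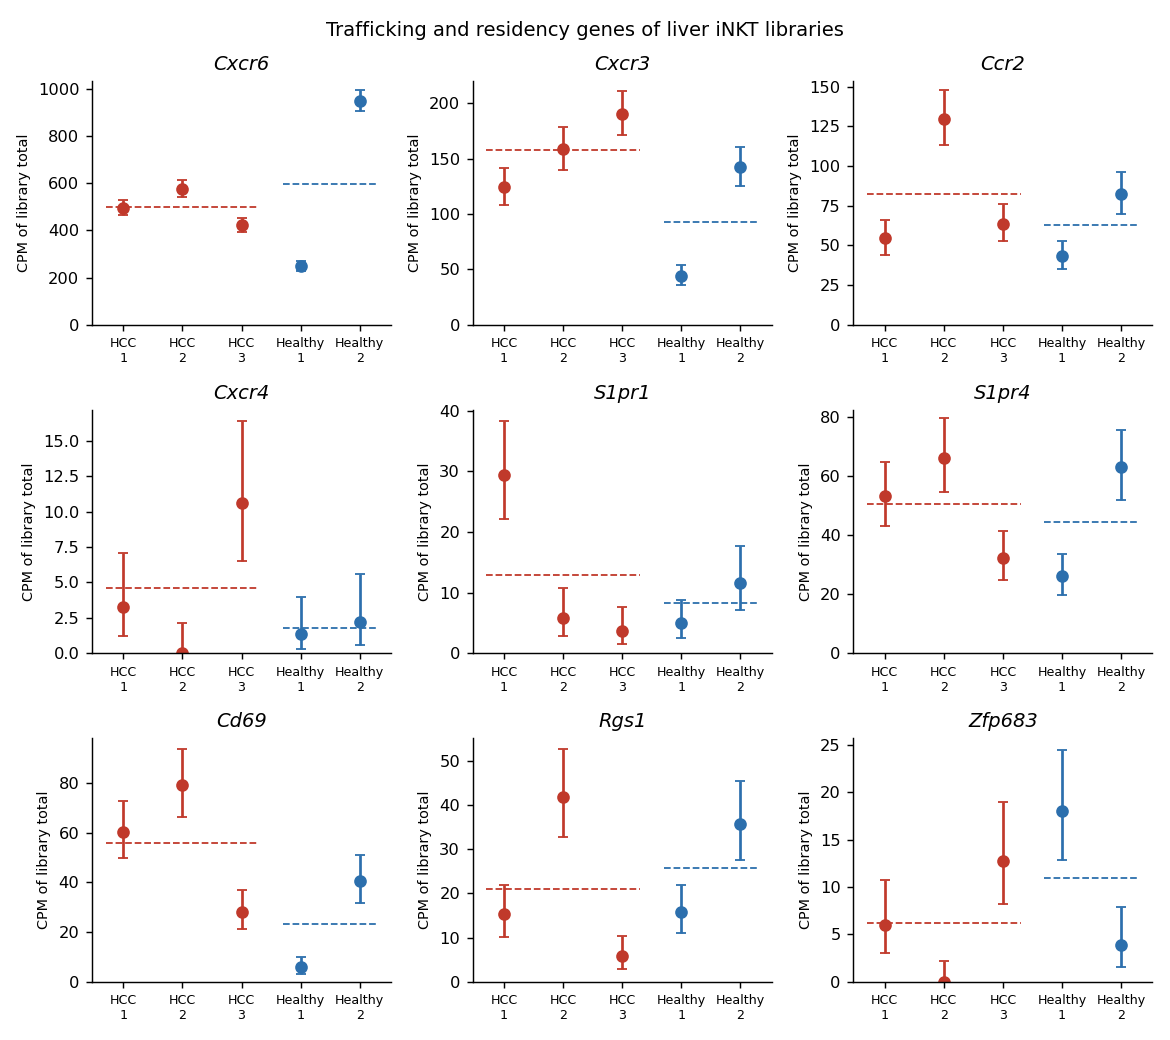
Level of each gene in each library, in CPM of the library total (y axis, from 0), for 3 HCC libraries (red) and 2 Healthy libraries (blue). Points are libraries, bars are exact 95% binomial intervals of counting error, and dashed lines are group means. In each panel the ranges of the groups overlap, and Healthy 1 is the lowest library for Cxcr6, Cxcr3, Ccr2, S1pr4 and Cd69.

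The homing receptors ranged from the most abundant member, Cxcr6, to the least abundant, Cxcr4. Cxcr6, the receptor for CXCL16 (ENSMUSG00000048521, chromosome 9, 123806475 to 123811760, mm10), led in each library. Its promoter is shown with that of Cxcr3, the second in abundance, and that of Cxcr4, which was near the counting limit, since these 3 span the range of levels among the receptors. The windows are from RefSeq (GRCm38.p6), which held 5 of the 9 members, and run from 250 bases before to 50 after the annotated start. Capitals mark TGTGGT, the core bound by RUNX factors, searched on both strands and present here as its reverse complement ACCACA. The positions are chr9:123806227-123806526 on the plus strand for Cxcr6, chrX:101734098-101734397 on the minus strand for Cxcr3 and chr1:128592250-128592549 on the minus strand for Cxcr4.
Cxcr6: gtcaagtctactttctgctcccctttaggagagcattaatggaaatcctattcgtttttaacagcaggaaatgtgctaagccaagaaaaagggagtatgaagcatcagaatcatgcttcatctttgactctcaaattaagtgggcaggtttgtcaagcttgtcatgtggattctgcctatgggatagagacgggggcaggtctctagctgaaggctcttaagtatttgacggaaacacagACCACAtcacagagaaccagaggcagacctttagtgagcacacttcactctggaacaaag
Cxcr3: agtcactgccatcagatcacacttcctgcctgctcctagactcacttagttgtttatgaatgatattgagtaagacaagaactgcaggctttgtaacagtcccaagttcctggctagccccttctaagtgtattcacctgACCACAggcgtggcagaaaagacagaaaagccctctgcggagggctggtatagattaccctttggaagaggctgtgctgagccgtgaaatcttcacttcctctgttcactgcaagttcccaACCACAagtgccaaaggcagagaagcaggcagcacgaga
Cxcr4: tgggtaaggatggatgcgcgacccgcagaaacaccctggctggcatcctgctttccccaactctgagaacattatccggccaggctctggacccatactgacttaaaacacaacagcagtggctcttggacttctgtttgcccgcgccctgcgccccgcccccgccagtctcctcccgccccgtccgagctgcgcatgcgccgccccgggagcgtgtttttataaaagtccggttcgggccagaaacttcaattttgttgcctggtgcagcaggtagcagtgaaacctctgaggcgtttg
The core occurred once in the Cxcr6 window, starting 10 bases before the start, and at 2 places in the Cxcr3 window, from base -110 and from base 12. These positions count from the RefSeq start. In GENCODE, Cxcr3 begins further upstream, at 101734269 on the minus strand, so its match from base -110 falls inside that gene span. The core was found in 16.8% of the 32851 promoter windows in the table and in 2 of the 5 members that have one, and Cxcr4, Ccr2 and S1pr4 had none. A match describes letters in this window and is not evidence of binding. The Cxcr4 window had 59.3% G and C with 20 CpG dinucleotides, while the Cxcr6 window had 44.3% and 3, and the medians over the table were 52.7% and 7. Runx3, a RUNX factor of cytotoxic and resident lymphocytes, was at 37.6, 65.2 and 33.4 CPM in HCC 1, 2 and 3 and at 15.7 and 34.0 CPM in Healthy 1 and 2.

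Cxcr6 had 909, 989 and 796 counts in HCC 1, 2 and 3, which are 494.7, 575.5 and 422.5 CPM, and 550 and 1727 counts in Healthy 1 and 2, which are 247 and 948 CPM. All 3 HCC libraries thus lay between the 2 Healthy libraries, and the counting intervals of the Healthy libraries, 227 to 269 and 904 to 994 CPM, were far apart. The mean was 498 ± 76.6 CPM in HCC (SD, n = 3) and 598 ± 495 CPM in Healthy libraries (SD, n = 2). HCC over Healthy gave a log2 fold change of -0.36 (SE 0.46, 95% interval -1.39 to 0.66), at -0.97 without Healthy 1 and 0.71 without Healthy 2, so its sign was set by which Healthy library was kept. By count Cxcr6 ranked 271st to 354th among genes in HCC libraries and 539th and 207th in Healthy 1 and 2. It lies within the gene Fyco1 on the opposite strand, whose row held 0, 22 and 0 counts in HCC 1, 2 and 3 and 0 and 2 in Healthy 1 and 2.

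Cxcr3, the receptor for the interferon-induced chemokines CXCL9, CXCL10 and CXCL11 (ENSMUSG00000050232, chromosome X, 101731535 to 101734269), was at 124, 158 and 191 CPM in HCC 1, 2 and 3 and at 44.1 and 142 CPM in Healthy 1 and 2. HCC 2 and HCC 3 were above both Healthy libraries, and HCC 1 was below Healthy 2 with overlapping counting intervals. Its log2 fold change was 0.66 (SE 0.47, 95% interval -0.38 to 1.70), falling to 0.12 without Healthy 1 and reaching 1.55 without Healthy 2 (adjusted p = 0.0807 in edgeR, where the remaining Healthy library is taken to be as variable as the HCC ones).

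Ccr2, the receptor for CCL2 that is best known for bringing monocytes into inflamed tissue (ENSMUSG00000049103, chromosome 9, 124101950 to 124113557), was at 54.4, 130 and 63.7 CPM in HCC 1, 2 and 3 and at 43.2 and 82.3 CPM in Healthy 1 and 2. HCC 2 alone was above both Healthy libraries, and the log2 fold change of 0.23 (SE 0.46, 95% interval -0.80 to 1.26) was -0.17 without HCC 2. Monocyte and macrophage markers, whose cells also express Ccr2, summed over 9 genes to 31.0, 33.8 and 11.2 CPM in HCC 1, 2 and 3 and to 25.2 and 7.68 CPM in Healthy 1 and 2. In HCC 2 this sum was Lyz2 alone, with Cd68, Csf1r, Adgre1 and Vsig4 at 0. In every library Ccr2 was above the sum of the 9 markers, but levels per cell are not known, so this does not tell its source. The part of these cells in the Ccr2 level was not tested, and in bulk libraries fewer cells of a type and less RNA per cell cannot be told apart.

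Cxcr4, the CXCL12 receptor that holds cells in bone marrow (ENSMUSG00000045382, chromosome 1, 128588199 to 128592293), had 6, 0 and 20 counts in HCC 1, 2 and 3 and 3 and 4 counts in Healthy 1 and 2. It did not pass the filter on low counts. HCC 3, at 10.6 CPM (interval 6.48 to 16.4), was the only library clearly above the level of 3 counts. The count of 0 in HCC 2 has an interval of 0 to 2.15 CPM.

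**Figure D2:**
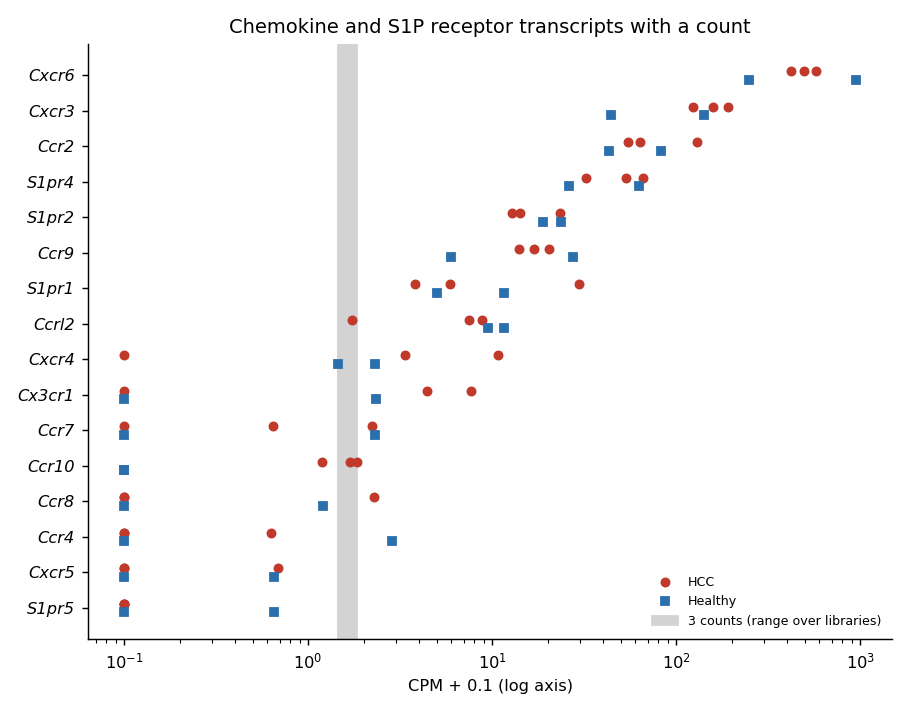
The 16 chemokine and S1P receptor genes reported here that had a count in any library, ordered by mean level, with CPM + 0.1 on a log axis. Circles are the 3 HCC libraries and squares the 2 Healthy libraries, points at the left edge are counts of 0, and the grey band is the level of 3 counts. Cxcr6 is highest at 247 to 948 CPM over all 5 libraries, followed by Cxcr3, while Ccr7, Cxcr5 and S1pr5 are near or under the band.

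The wider set of chemokine receptors was narrow. Of 19 other chemokine receptor genes, 10 had a count of 0 in all 5 libraries, among them Ccr6, which marks the IL-17-producing NKT17 subset, and 3 were tested. Ccr9, the gut homing receptor, was at 17.0 ± 3.10 CPM in HCC (SD, n = 3) and 16.6 ± 15.3 CPM in Healthy libraries (SD, n = 2). Ccr7, the receptor for lymph node entry, had 1, 0 and 4 counts in HCC 1, 2 and 3 and 0 and 4 counts in Healthy 1 and 2. Of the 3 tested genes, which include Ccr9 but not Ccr7, 0 were called, 1 was fitted higher and 2 lower. Their median log2 fold change was -0.04, at 0.53 without Healthy 2. In 1 of the 3 each HCC library was below both Healthy libraries, where 18.3% of all genes tested did not overlap in either direction. The ligands of the member receptors were not tested for lack of counts: the 2 most abundant, Cxcl12 and Cxcl10, had at most 13 counts in any library, and Cxcl16 had 1 count in all.

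The exit receptors differed in level. S1pr4, an S1P receptor found mainly on lymphocytes and other blood cells (ENSMUSG00000044199, chromosome 10, 81497747 to 81500132), was at 53.3, 66.3 and 32.4 CPM in HCC 1, 2 and 3 and at 26.1 and 63.1 CPM in Healthy 1 and 2. HCC 1 and HCC 3 lay between the Healthy libraries and HCC 2 was close to Healthy 2. The log2 fold change was 0.05 (SE 0.48, 95% interval -1.02 to 1.11), so that a change of about 1 on the log2 scale in either direction remained within the interval.

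S1pr1, the main receptor for exit into blood and lymph (ENSMUSG00000045092, chromosome 3, 115710433 to 115715072), had 54, 10 and 7 counts in HCC 1, 2 and 3 and 11 and 21 counts in Healthy 1 and 2. These are 29.4, 5.82 and 3.72 CPM in HCC and 4.95 and 11.5 CPM in Healthy libraries. HCC 1 stood above the others, with an interval of 22.1 to 38.3 CPM that did not reach that of Healthy 2, 7.14 to 17.6 CPM. The log2 fold change of 0.53 (SE 0.97, 95% interval -1.65 to 2.71) turned to -0.93 without HCC 1. Other cells also express S1pr1, and their part in its level was not tested. Liver endothelium markers summed to 2.18, 1.75 and 3.19 CPM in HCC 1, 2 and 3 and to 0 and 0.549 CPM in Healthy 1 and 2, with Cdh5, Stab2 and Lyve1 at 0 throughout. Naive T cell markers summed to 38.6, 74.5 and 44.1 CPM in HCC 1, 2 and 3 and to 10.8 and 39.0 CPM in Healthy 1 and 2. Lef1 and Tcf7 made up most of the naive T cell sum in each library, at 33.17 and 41.32 CPM in HCC 2. Ccr7 had at most 4 counts in any library, and Dapl1 had 1 count in HCC 1 and 0 elsewhere. B cell markers summed to 112, 175 and 125 CPM in HCC and to 36.0 and 123 CPM in Healthy libraries. In HCC 1 Ighm, at 102 CPM its highest level of the 5 libraries, made up most of the B cell sum, while Cd79a, Cd79b and Ms4a1 were at 0. NK cell markers summed to 359.7, 98.9 and 140 CPM in HCC 1, 2 and 3 and to 230 and 65.9 CPM in Healthy 1 and 2, highest in HCC 1 and almost wholly Klrc2, which was at 352 CPM there.

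S1pr1 was below S1pr4 in each library, at 0.551, 0.0877 and 0.115 times its count in HCC 1, 2 and 3 and 0.190 and 0.183 times in Healthy 1 and 2. Counts of 3' ends were compared without division by gene length, since each transcript gives 1 end. Of 10 other genes of S1P receptors and S1P handling, 4 were tested and 0 called, with 3 fitted higher, 1 lower and a median log2 fold change of 0.08, whose sign turned without HCC 1 (-0.13) and without Healthy 1 (-0.29) and which was 0.94 without Healthy 2. Sgpl1, the lyase that breaks down S1P, was at 48.2 ± 7.41 CPM in HCC (SD, n = 3) and 39.9 ± 12.6 CPM in Healthy libraries (SD, n = 2). Its log2 fold change after scaling was 0.12 (SE 0.42). Sphk2, a kinase that makes S1P, was at 25.6, 30.3 and 57.9 CPM in HCC 1, 2 and 3 and at 10.8 and 29.1 CPM in Healthy 1 and 2 (log2 fold change 0.83, SE 0.59, at 0.37 without Healthy 1 and 1.53 without Healthy 2). S1pr5, an exit receptor of NK cells, had 1 count in Healthy 2 and 0 elsewhere.

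Genes of exit and lymph node homing outside the receptors gave 0 calls among 4 tested of 5 listed, with 3 fitted higher, 1 lower and a median log2 fold change of 0.36, which was 0.12 without Healthy 1, 1.27 without Healthy 2 and 0.60 with no filter on low counts. Klf2, the factor that drives S1pr1 in T cells, was at 64.2, 58.8 and 86.0 CPM in HCC 1, 2 and 3 and at 23.8 and 63.1 CPM in Healthy 1 and 2 (log2 fold change 0.57, SE 0.47, at 0.12 without Healthy 1 and 1.27 without Healthy 2). HCC 3, the highest library for Klf2, was the lowest for S1pr1. That lowest place rests on 7 counts, against 10 in HCC 2 and 11 in Healthy 1, and the counting intervals of these libraries overlap. Il7r, the IL-7 receptor chain, was at 147 ± 47.4 CPM in HCC (SD, n = 3) and 115 ± 4.43 CPM in Healthy libraries (SD, n = 2). Its log2 fold change after scaling was 0.15 (SE 0.39).

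Among the retention genes Cd69 had the largest positive log2 fold change of the 8 tested members. Cd69, a C-type lectin of activated and resident lymphocytes (ENSMUSG00000030156, chromosome 6, 129267325 to 129275436), had 111, 136 and 53 counts in HCC 1, 2 and 3 and 13 and 74 counts in Healthy 1 and 2. These are 60.4, 79.1 and 28.1 CPM in HCC and 5.84 and 40.6 CPM in Healthy libraries. HCC 1 and HCC 2 were above both Healthy libraries and HCC 3 was below Healthy 2. The mean was 55.9 ± 25.8 CPM in HCC (SD, n = 3) and 23.2 ± 24.6 CPM in Healthy libraries (SD, n = 2). The log2 fold change was 1.17 (SE 0.71, 95% interval -0.40 to 2.75). It was 0.41 without Healthy 1 and 2.93 without Healthy 2 (adjusted p = 0.0551 in edgeR with 1 Healthy library), so much of its size rested on Healthy 1. Summed markers of hepatocytes and of red cells were above the sums of Healthy 1 and 2 in HCC 1, 2 and 3. The 12 hepatocyte markers summed to 68.0, 288 and 609 CPM in HCC 1, 2 and 3. In Healthy 1 and 2 they summed to 48.6 and 53.2 CPM. The 6 erythroid markers summed to 7391, 17080 and 15380 CPM in HCC and to 2975 and 2787 CPM in Healthy libraries. Of 8 hepatocyte and 5 erythroid markers tested, edgeR called 0 at an adjusted p under 0.05. The lowest HCC level exceeded the highest Healthy level in 4 of these hepatocyte and 5 of these erythroid markers. That order held for 12.8% of all genes tested. The B cell and naive T cell marker sums given above were, like Cd69, highest in HCC 2 and lowest in Healthy 1. Healthy 1 was at or under the level of each other library in 43.1% of all genes tested. The part of hepatocytes, red cells, B cells and naive T cells in the Cd69 level was not tested. Among the HCC libraries HCC 3, the highest for hepatocyte markers, had the least Cd69, and HCC 2, the highest for erythroid markers, had the most. With 3 HCC libraries, of which HCC 2 and HCC 3 may not be from separate mice, this order does not tell the source of Cd69.

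Rgs1, a regulator of G protein signalling that dampens the response to chemokines and S1P (ENSMUSG00000026358, chromosome 1, 144242296 to 144249242), was at 15.2, 41.9 and 5.84 CPM in HCC 1, 2 and 3 and at 15.7 and 35.7 CPM in Healthy 1 and 2. The HCC libraries held both the highest and the lowest level, 7.18-fold apart. Its log2 fold change was -0.47 (SE 0.73, 95% interval -2.10 to 1.17), at -1.37 without HCC 2, -0.03 without HCC 3, -0.84 without Healthy 1 and 0.08 without Healthy 2. Of 10 other RGS genes 5 were tested and 0 called, with 3 fitted higher, 2 lower and a median log2 fold change of 0.14. Rgs2 was at 76.0 ± 18.8 CPM in HCC (SD, n = 3) and 59.4 ± 5.62 CPM in Healthy libraries (SD, n = 2), and Rgs14 was at 68.7 ± 9.88 CPM in HCC and 53.0 ± 23.0 CPM in Healthy libraries. After scaling, the log2 fold change was 0.14 for Rgs2 (SE 0.40) and 0.14 for Rgs14 (SE 0.46). Without Healthy 2 these were -0.037 and -0.30.

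Zfp683 (ENSMUSG00000049410, chromosome 4, 134053838 to 134058996) had 11, 0 and 24 counts in HCC 1, 2 and 3 and 40 and 7 counts in Healthy 1 and 2. These are 5.99, 0 and 12.7 CPM in HCC and 18.0 and 3.84 CPM in Healthy libraries. It was the only member with its highest level in Healthy 1, and HCC 2 held no count. The log2 fold change of -1.03 (SE 1.28, 95% interval -3.90 to 1.84) was 0.72 without Healthy 1, -0.44 without HCC 2 and -2.10 without HCC 3, so its direction depended on single libraries.

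**Figure D3:**
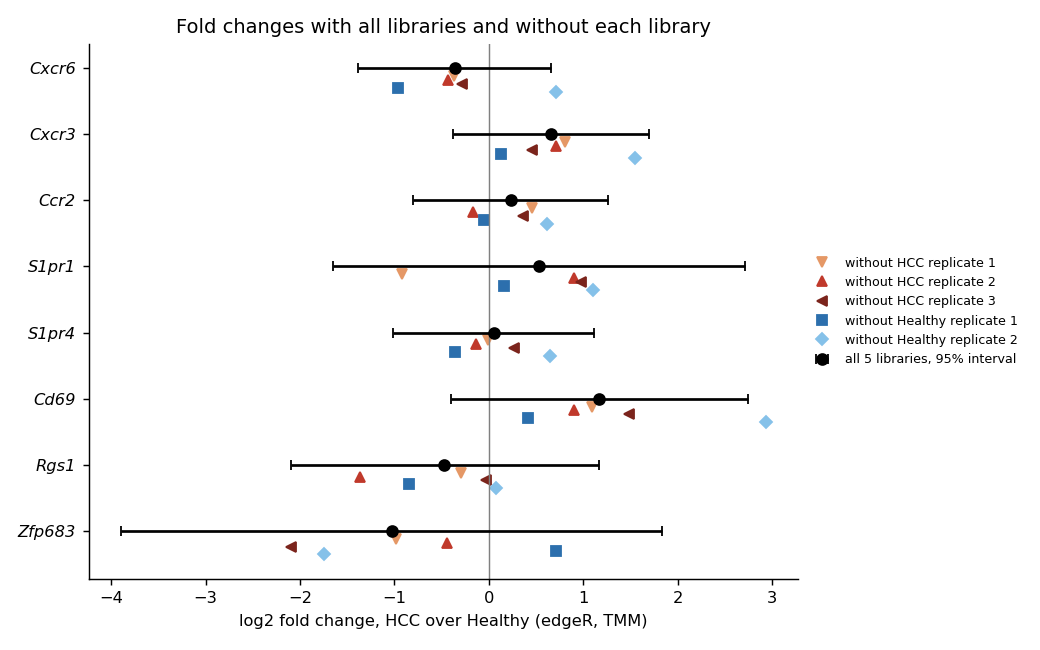
Log2 fold change of HCC over Healthy libraries for the 8 tested genes, with the 95% interval of the edgeR fit (black) and the value without each library in turn (coloured symbols). Each interval with all libraries includes 0, and the values for Cxcr6, Ccr2, S1pr1, S1pr4, Rgs1 and Zfp683 change sign when 1 library is left out.

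The 2 Healthy libraries differed from each other in nearly all members. Healthy 2 was more than 1.5-fold above Healthy 1 in 8 of 9 members, where 46.3% of all genes tested were so. The exception was Zfp683, and for Cxcr4 this rests on 4 against 3 counts. The summed level of the 9 genes was 841, 1057 and 770 CPM in HCC 1, 2 and 3 and 406 and 1329 CPM in Healthy 1 and 2, so all 3 HCC libraries lay between the Healthy ones. Without Cxcr6 the sums were 346, 481 and 348 CPM in HCC and 159 and 382 CPM in Healthy libraries. Cxcr6 made up 58.8, 54.5 and 54.9% of the summed level in HCC 1, 2 and 3 and 60.8 and 71.3% in Healthy 1 and 2. The 3' ends of the members are distinctive: of the 30-base words from the final 300 bases of each transcript, 0% occur in transcripts of other genes, except for 0.738% in Cxcr4 and 0.497% in Cd69.

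Ratios of 2 genes within a library do not depend on how libraries are scaled. Cxcr3 made up 20.1% (exact 95% interval 17.8 to 22.5), 21.6% (19.3 to 23.9) and 31.1% (28.4 to 33.8) of the counts of Cxcr3 and Cxcr6 together in HCC 1, 2 and 3. The share was 15.1% (12.5 to 18.1) in Healthy 1 and 13.0% (11.6 to 14.6) in Healthy 2. All 3 HCC libraries were above both Healthy libraries, although the intervals of HCC 1 and Healthy 1 overlap. The ratio of Cd69 to Rgs1 counts was 3.96, 1.89 and 4.82 in HCC 1, 2 and 3 and 0.371 and 1.14 in Healthy 1 and 2. It has no interval here and rests on low counts, with 11 of Rgs1 in HCC 3 and 13 of Cd69 in Healthy 1. Cxcr6 had 8.19, 7.27 and 15.0 counts per count of Cd69 in HCC 1, 2 and 3 and 42.3 and 23.3 in Healthy 1 and 2, again without overlap.

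These ratios were singled out after their values were seen, from 21 pairs of the 7 members with a count in every library. The groups did not overlap in 6 of the 21 pairs, or 28.6%, where 18.6% of all pairs drawn from the 5761 tested genes that averaged 10 CPM or more and had a count in every library did not overlap, and the 21 pairs share members and libraries. Against single members, 14.5% of 5760 other genes had a ratio to Cxcr6 that was higher in all HCC libraries, and Cxcr3 is one of them. For Cd69, 22.9% of genes had a ratio to it that was lower in all HCC libraries and 0.122% one that was higher. For Rgs1, 12.4% of genes had a ratio to it that was higher in all HCC libraries, Cd69 among them, and 0.0521% one that was lower. With 3 and 2 libraries an exact permutation test cannot go below 0.1 one-sided or 0.2 two-sided, so no p is given for a ratio.

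**Figure D4:**
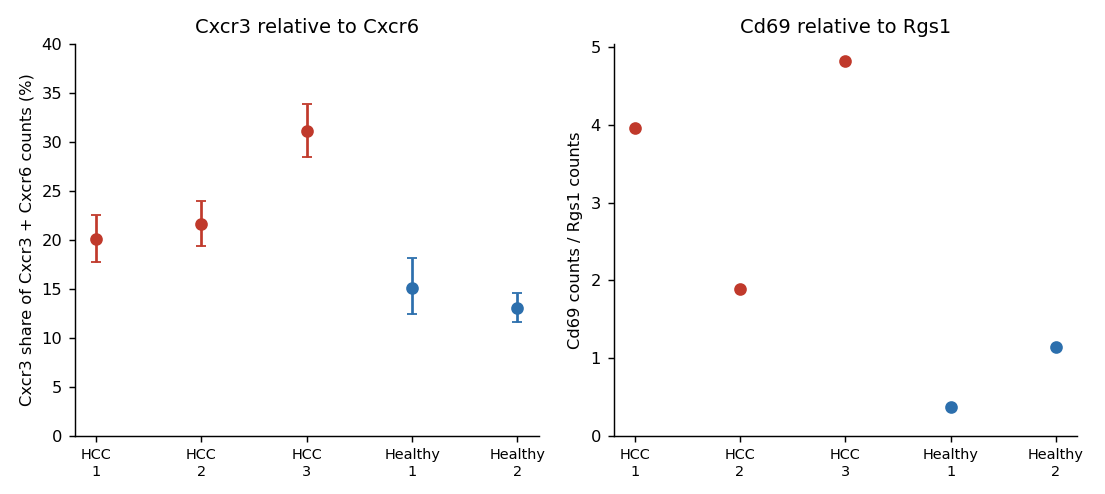
Left, share of Cxcr3 in the counts of Cxcr3 and Cxcr6 together (percent) with exact 95% binomial intervals. Right, counts of Cd69 divided by counts of Rgs1. Red points are the 3 HCC libraries and blue points the 2 Healthy libraries. The share is 20.1 to 31.1% in HCC and 13.0 to 15.1% in Healthy libraries, and the ratio is 1.89 to 4.82 in HCC and 0.371 to 1.14 in Healthy libraries.

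Genes that transmit receptor signals all passed the filter on low counts and gave 0 calls. All 18 listed genes of G protein signalling and cell movement were tested, with 12 fitted higher, 6 lower and a median log2 fold change of 0.06, at 0.17 without Healthy 1 and 0.38 without Healthy 2. In 4 of them each HCC library was above both Healthy libraries, as it was in 12.8% of all genes tested. Rac2, a GTPase of leukocyte migration, was at 658 ± 47.7 CPM in HCC (SD, n = 3) and 552 ± 48.1 CPM in Healthy libraries (SD, n = 2), with a log2 fold change of 0.05 after scaling. Rap1b, a GTPase that switches on integrins, was at 499.9 ± 26.5 CPM in HCC and 434 ± 212 CPM in Healthy libraries, with a log2 fold change of 0.07 after scaling. Among 18 transcription factors and surface genes of residency 12 were tested and 0 called, with 9 fitted higher, 3 lower and a median of 0.31. In 1 of these 12 each HCC library was above both Healthy libraries, against the same 12.8% of all genes tested. Il2rb, the receptor chain for IL-2 and IL-15, was at 1031 ± 180 CPM in HCC (SD, n = 3) and 816 ± 236 CPM in Healthy libraries (SD, n = 2). Its log2 fold change after scaling was 0.17 (SE 0.33). Itgal, the alpha chain of LFA-1, which holds iNKT cells in liver sinusoids, was at 341, 486 and 478 CPM in HCC 1, 2 and 3 and at 206 and 337 CPM in Healthy 1 and 2 (log2 fold change 0.53, SE 0.36).

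The genes most like Cxcr6 over the 5 libraries were AI467606, Glrx and Bod1, with root mean square differences of 0.0603, 0.0855 and 0.105 in centred log2(CPM + 1) among the 4856 genes that averaged 10 CPM or more and were not named Gm, Rik or -ps. AI467606 was at 80.5, 89.0 and 65.3 CPM in HCC 1, 2 and 3 and at 39.6 and 165 CPM in Healthy 1 and 2. The genes most like Cxcr3 were Ergic1, Slc35c1 and Ccdc25, at 0.0632, 0.0858 and 0.0908. Ergic1 was at 41.4, 46.6 and 62.1 CPM in HCC 1, 2 and 3 and at 13.0 and 45.0 CPM in Healthy 1 and 2. With 5 libraries these likenesses describe only how levels ran over the libraries. Healthy 1 was lowest for all 6 genes, which follows from their choice by likeness to Cxcr6 and Cxcr3, both lowest there.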

How the data were processed

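RNA of sorted iNKT cells was made into 3' mRNA libraries with a QuantSeq kit for Ion Torrent, per the labels' protocols. The authors deposited 1 table per library, holding raw counts for each Ensembl gene ID with no normalization. The submitters' processing notes list HISAT2, Bowtie2, bcl2fastq, limma, edgeR, DESeq and DESeq2 with no role, and the build mm10. How reads were counted, and on which strand and annotation, is not given in the sources used here. Symbols and positions came by gene ID from GENCODE M21, which named 55104 of 55364 IDs.

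The only comparison was HCC (3 libraries) against Healthy (2). Levels are CPM of each table's own total. Counts were tested in R 4.3.3 with edgeR 4.0.16 (filterByExpr, TMM, quasi-likelihood F test) over 8468 genes, with Benjamini-Hochberg adjustment at 0.05. SE is the log2 fold change divided by the square root of F, and 95% intervals use its degrees of freedom. The common dispersion was 0.289. TMM factors were 1.039, 1.12 and 0.9998 for HCC 1, 2 and 3 and 0.8295 and 1.036 for Healthy 1 and 2, and library totals alone moved the median log2 fold change of all genes by 0.168. The test was also run on simulated counts, drawn with the common dispersion for every gene and with no outlying library. That run does not cover a library that stands apart as Healthy 1 did.

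The members and lists were chosen with earlier results of these data known. Named genes were all members, the 2 most abundant genes of each list where none was called, the 3 genes most like each of the 2 most abundant members, and markers of iNKT and other cells. Other genes named from the lists (Ccr6, Ccr7, Cxcl16, S1pr5, Runx3) were chosen after their values were seen. The values of some listed genes are not reported here, although the counts and sums of their lists include them. Alternatives were DESeq2 size factors, library totals, no filter, a filter of 10 CPM in 2 libraries, DESeq2 1.42.0, limma-voom (limma 3.58.1), HCC 2 and 3 summed, a replicate block, and leaving out each library. The design text counts 5 mice, though HCC 2 and HCC 3 may not be from separate mice. The p-values measure the spread between these 5 libraries.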

Additional observations from a re-analysis of the deposited data

How the results depend on the processing

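0 members and 0 genes of the trafficking lists were called under any of the 13 alternatives that tested them. Over all genes, 53 were called with no filter on low counts, 8 by DESeq2, 3 with a replicate block and 0 to 196 when 1 library was left out, the 196 without Healthy 2, where the cause was not tested. The replicate numbers are not said to pair mice: deviations of HCC 1 and Healthy 1 had a correlation of -3.18e-05 and those of HCC 2 and Healthy 2 of 0.125, and under this block Cd69 was at 1.87 (adjusted p = 0.9999 in edgeR).

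Of 104 member fold changes under the alternatives 9 turned sign, each on leaving out 1 library. The log2 fold changes without 1 library ran from -0.97 to 0.71 for Cxcr6, -0.17 to 0.62 for Ccr2, -0.93 to 1.11 for S1pr1, -0.36 to 0.65 for S1pr4, -1.37 to 0.076 for Rgs1 and -2.10 to 0.72 for Zfp683. Among list genes they ran from -0.71 to 1.25 for Ccr9, -0.040 to 0.35 for Sgpl1, -0.036 to 0.36 for Il7r, -0.12 to 0.32 for Rac2, -0.25 to 0.53 for Rap1b, -0.037 to 0.42 for Rgs2 and -0.30 to 0.88 for Rgs14, and with no turn of sign from 0.12 to 1.27 for Klf2 and 0.34 to 1.53 for Sphk2. Ccr9, at -0.04, was also at 0.039 with library totals, 0.21 in limma-voom and 0.021 with the replicate block. The median log2 fold changes of the lists without 1 library ran from -0.39 to 0.53 for other chemokine receptors, -0.29 to 0.94 for S1P genes, 0.12 to 1.27 for exit genes, 0.01 to 0.38 for G protein signalling, -0.04 to 0.15 for RGS genes and 0.12 to 0.43 for residency genes. Counts were 0 to 20 per library for Cxcr4, 0 to 40 for Zfp683 and 7 to 54 for S1pr1, so counting error is wide for these genes.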
